A study of Mus musculus with 25 samples.

Results

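Heat shock proteins and their J-domain partners were described across 8 sorted populations of mouse group 1 innate lymphoid cells (G1-ILCs), the family of natural killer (NK) cells and type 1 innate lymphoid cells (ILC1s). The genes were the protein-coding genes of the count table with a GENCODE symbol that starts with Hspa, Hspb, Hsp90, Dnaja, Dnajb or Dnajc, together with Hspd1, Hspe1 and Hsph1. 73 of 46078 genes in the table met this rule. Of these, 55 had a count in every library, 61 passed the filter on low counts in the fit of all 8 groups and 12 did not.

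HSP70 proteins bind stretches of unfolded protein and release them in a cycle driven by ATP. J-domain proteins (DNAJA, DNAJB and DNAJC) bring clients to HSP70 and start ATP hydrolysis, and HSP110 proteins exchange the nucleotide. HSP90 acts later, on nearly folded clients such as kinases and receptors. HSPD1 and HSPE1 form the folding chamber of mitochondria, while HSPA5 (BiP) and HSP90B1 (GRP94) serve proteins that enter the endoplasmic reticulum (ER). Some of these genes are expressed at all times (Hspa8, Hsp90ab1), whereas others (Hspa1a, Hspa1b, Dnajb1, Hsph1) are known as targets of the heat shock factor HSF1, and the ER members as targets of the unfolded protein response.

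All cells were from wild-type C57BL/6 mice and were sorted as CD3-NK1.1+NKp46+ cells. FL G1-ILCs were CD49a int CD49b int cells of fetal liver at E18.5, late gestation (4 libraries). The other groups were from 8-week-old adults. In adult liver (AL), ILC1s were CD49a+CD49b lo and either IL-7R- (AL 7R- ILC1s, 4 libraries) or IL-7R+ (AL 7R+ ILC1s, 3 libraries), and NK cells were CD49a-CD49b+ (AL NK cells, 2 libraries). In bone marrow (BM), CD49a+CD49b lo cells are called immature ILC1s (BM iILC1s, 3 libraries), and BM NK cells were CD49a-CD49b+ (3 libraries). CD27+IL-7R+ cells of the intestinal lamina propria (LPL ILC1s, 4 libraries) and CD49a+CD49b+ cells of the salivary gland (SG G1-ILCs, 2 libraries) completed the set. By the methods of the study, liver and marrow cells were released mechanically, and adult liver leukocytes then passed a Percoll step. Salivary gland was digested warm with collagenase D and DNase. Lamina propria was incubated warm with EDTA and then digested with DNase and a higher dose of collagenase D. Cells of both digested tissues also passed a Percoll step. Enzyme digestion, tissue and sort gate therefore cannot be told apart in the LPL and SG groups, which are described after the 6 liver and marrow groups.

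Library totals ran from 2302643 to 7995906 counts (median 4603579). FL G1-ILC replicates 2 and 3 differed by about the sampling noise (chi-square per degree of freedom 1.18, against 3.51 to 12.4 for the 28 other replicate pairs). They were therefore added and counted as 1 sample, which leaves 24 samples. The study itself counts 4 biological replicates in this group. Levels are given as CPM (counts scaled to a common library total), with TMM-scaled library sizes, in replicate order. Calls rest on edgeR's quasi-likelihood test across all genes, with a threshold of 0.05 on the adjusted p. The study describes its replicates as biological, but the labels do not tie libraries to separate animals. The p-values therefore cover only the spread between libraries. The G1-ILC markers Klrb1c, Ncr1, Tbx21, Il2rb and Nkg7 summed to 8637 to 12068 CPM in the adult samples and 7106 to 7561 CPM in FL G1-ILCs. In these bulk libraries, fewer cells that express a gene and less RNA per cell cannot be told apart.

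Per kilobase of exon, Hspa8 had the highest mean level over the 8 groups (607 CPM per kb), followed by Hspa5 (489), Hsp90ab1 (430), Hsp90b1 (227) and Hspa1b (134). Hspa8, the constitutive cytosolic HSP70, took the largest share of the summed CPM of the 73 genes in every group except LPL ILC1s, from 16.1% in SG G1-ILCs to 22.2% in AL NK cells. In LPL ILC1s, Hspa5 came first with 26.3%. Expression per kilobase of the 12 genes that did not pass the filter was below 1 CPM per kb. Over all libraries, the small heat shock genes Hspb2, Hspb3, Hspb9, Hspb7 and Hspb8 had 2, 8, 16, 17 and 21 counts. The J protein genes Dnajc22, Dnajc5b, Dnajc5g and Dnajb3 had 9, 10, 14 and 71 counts, and Hspa12a and Hspa1l had 34 and 46. Dnajb8, a testis-enriched J protein, had no count in any library.

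The summed level of the 73 genes was lowest in marrow, at 7920 ± 43.6 CPM (SD, n = 3) for BM iILC1s and 8307 ± 330 CPM (n = 3) for BM NK cells. Adult liver followed, where AL 7R- ILC1s had 9358 ± 802 CPM (n = 4), AL 7R+ ILC1s had 9701 ± 483 CPM (n = 3) and AL NK cells had 10645 ± 345 CPM (n = 2). FL G1-ILCs had 11827 ± 353 CPM (n = 3). Both digested groups stood above these without overlap, at 28243 ± 4233 CPM (n = 4) in LPL ILC1s and 21415 ± 930 (n = 2) in SG G1-ILCs. The summed level of the ER genes separated LPL ILC1s from all other groups (9376 to 10038 CPM, against 2328 to 3935 in the other 7). Most of this sum in LPL ILC1s was Hspa5, at 6953 to 7754 CPM there and 832 to 2149 CPM in the other groups. The cytosolic HSP70 genes were high in both digested groups.

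**Figure D1:**
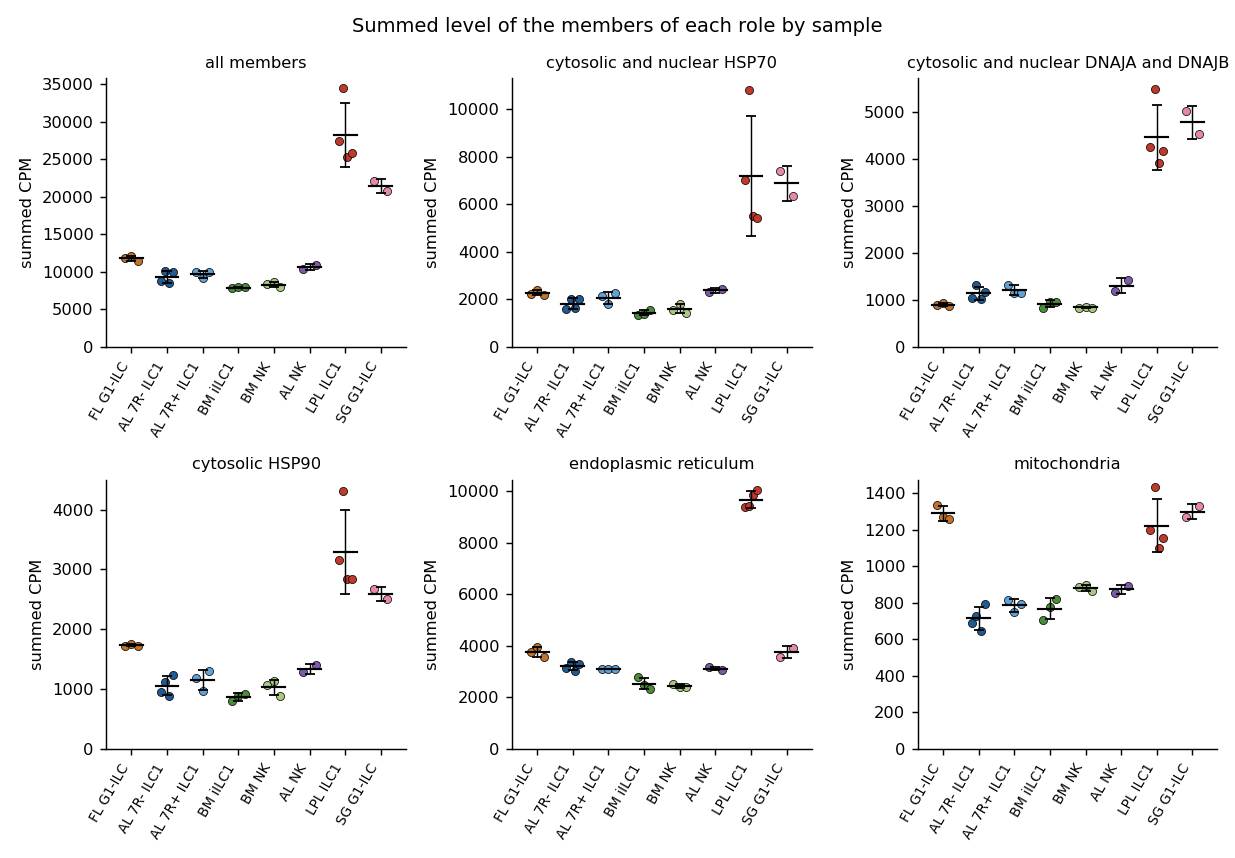
Summed CPM (y axis) of all 73 genes and of 5 roles in each of the 24 samples (points) by group (x axis). Lines are group means and bars are ± SD. The LPL ILC1 and SG G1-ILC samples lie above every liver and marrow sample in the HSP70, DNAJA and DNAJB, and HSP90 panels, whereas in the ER panel only LPL ILC1s stand apart, and in the mitochondrial panel FL G1-ILCs lie level with them. Most of the ER sum in LPL ILC1s is Hspa5.

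Promoter sequence is shown for 6 genes, picked among those whose windows hold the letters described below. RefSeq windows of the GRCm38.p6 build, 250 bases before to 50 bases after the start, were found for 59 of the 73 symbols. Hspa8 and Hsp90aa1 are named only. The letters GAA NN TTC NN GAA read without the spaces, on either strand (the other strand reads TTC NN GAA NN TTC), a stringent 3-unit form of the element that HSF1 binds, occurred in the windows of 4 genes (Hsph1, Hspd1, Hspe1 and Dnajb6). These are 6.78% of the 59, against 0.662% of all 27025 genes with a window (0.603% of all 32851 windows). The Hsph1 match shown begins 36 bases after the start. The letters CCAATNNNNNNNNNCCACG on either strand, the ER stress element, occurred in 3 genes (Hspa5, Hsp90b1 and Dnajc3), or 5.08%, and in 0.137% of all genes with a window (0.119% of all windows). Capitals mark these letters.
Hsph1 (chr5:149636287-149636586, - strand): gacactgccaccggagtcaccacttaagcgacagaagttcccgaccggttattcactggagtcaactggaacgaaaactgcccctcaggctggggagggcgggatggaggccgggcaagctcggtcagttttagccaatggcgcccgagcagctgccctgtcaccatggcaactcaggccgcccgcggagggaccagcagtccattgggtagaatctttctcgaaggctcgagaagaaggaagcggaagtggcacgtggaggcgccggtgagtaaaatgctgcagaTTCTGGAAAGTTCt
Hspd1 (chr1:55087883-55088182, - strand): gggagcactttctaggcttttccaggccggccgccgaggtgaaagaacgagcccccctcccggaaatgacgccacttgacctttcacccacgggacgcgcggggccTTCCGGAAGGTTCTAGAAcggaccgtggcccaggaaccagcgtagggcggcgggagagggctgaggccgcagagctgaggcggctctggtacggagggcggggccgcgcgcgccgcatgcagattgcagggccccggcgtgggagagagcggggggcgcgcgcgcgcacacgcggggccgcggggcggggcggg
Hspa5 (chr2:34771840-34772139, + strand): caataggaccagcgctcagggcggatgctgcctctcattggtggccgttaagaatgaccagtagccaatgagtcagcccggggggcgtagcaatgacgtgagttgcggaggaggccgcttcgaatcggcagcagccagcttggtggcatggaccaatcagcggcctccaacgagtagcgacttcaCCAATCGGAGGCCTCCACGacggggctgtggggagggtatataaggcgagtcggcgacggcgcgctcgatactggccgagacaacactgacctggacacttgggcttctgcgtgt
Hsp90b1 (chr10:86705395-86705694, - strand): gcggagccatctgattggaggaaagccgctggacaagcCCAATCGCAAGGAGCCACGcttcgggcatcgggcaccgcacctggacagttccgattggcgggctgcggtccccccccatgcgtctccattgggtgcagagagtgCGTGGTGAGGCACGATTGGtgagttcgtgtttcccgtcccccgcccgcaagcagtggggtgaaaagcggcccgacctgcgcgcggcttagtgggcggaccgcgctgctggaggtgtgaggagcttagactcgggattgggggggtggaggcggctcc
Hspd1 and Hspe1 lie head to head on chromosome 1, so the 2 overlapping capital stretches in the Hspd1 window are the same bases as those in the Hspe1 window on the other strand. Hspa1a and Hspa1b are neighbours on chromosome 17 (34969190 to 34972156 and 34956436 to 34959238, both on the minus strand). Their coding sequences differ at 8 bases and by 1 gap of 3 bases (99.6% identical), and their promoter windows are 98.7% identical. In these 2 windows the capitals mark a shorter 2-unit form (GAANNTTC or TTCNNGAA, which the 3-unit form contains), present in 15.1% of all windows and in 16 of the 59 genes. A gene counts if any of its windows holds a match, and the share of all genes was not computed for this form. The windows of Dnajb1 hold neither form.
Hspa1a (chr17:34972107-34972406, - strand): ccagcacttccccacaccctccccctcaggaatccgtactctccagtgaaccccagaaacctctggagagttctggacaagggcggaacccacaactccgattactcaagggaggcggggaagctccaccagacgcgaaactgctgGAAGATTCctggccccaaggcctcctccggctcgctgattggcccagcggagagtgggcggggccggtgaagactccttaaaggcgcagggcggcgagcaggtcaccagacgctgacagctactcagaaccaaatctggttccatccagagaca
Hspa1b (chr17:34959189-34959488, - strand): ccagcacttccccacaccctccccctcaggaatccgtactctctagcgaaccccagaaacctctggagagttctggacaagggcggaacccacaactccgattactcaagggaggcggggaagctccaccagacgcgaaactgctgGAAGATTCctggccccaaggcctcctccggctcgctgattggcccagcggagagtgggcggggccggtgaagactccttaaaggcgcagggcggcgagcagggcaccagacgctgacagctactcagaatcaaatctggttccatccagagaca
How reads that fit both copies were counted is not given in the sources used here, so the split between Hspa1a and Hspa1b is uncertain, and their sum is given beside them.

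The first question was whether these genes varied among the 6 groups of liver and marrow. The study relates fetal and adult ILC1s by expression and also by cell transfer, fate-mapping, imaging and deletion of Il15. Of 60 genes tested, 38 (63.3%) differed among the 6 groups, and 59% of all 13424 genes tested did. The share is near that of all genes. Dnajc9 had the smallest adjusted p (2.48e-11), ahead of Hspe1 (3.4e-09), Hsp90b1 (4.14e-09) and Hspa5 (1.17e-08). In contrast, Hspa13, Hspa2, Dnaja2, Dnajb6 and Dnajc7 were among the 22 that did not pass.

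Fetal cells were compared with the adult liver ILC1s that lack IL-7R. The mitochondrial folding genes, the cytosolic HSP90 genes and Dnajc9 were higher in fetal cells, while several DNAJB and DNAJA genes were higher in the adult cells. 22 of 60 genes were higher (36.7%; 24.8% of all genes) and 13 were lower (21.7%; 22.9% of all genes), where 47.7% of all genes were called in either direction. The 22 include Hspa1a, which passed the filter of this fit only through its counts in FL G1-ILCs. The median log2 fold change was 0.08 over the 60 genes and -0.05 over all genes. Of the 5 G1-ILC markers, 4 were lower in FL G1-ILCs, where they summed to 7106 to 7561 CPM against 10508 to 10880 CPM. Myeloid markers summed to 47.3 to 197 CPM against 12.2 to 39.7 CPM, with 2 of 8 tested called higher (S100a8 and S100a9), Elane at 0 in FL G1-ILCs and S100a9 at 0 in AL 7R- ILC1s. The part of these shifts in the chaperone differences was not tested.

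Dnajc9, a nuclear J protein that also chaperones histones H3-H4, was present at 217, 185 and 203 CPM in FL G1-ILCs and at 68.3, 61.9, 65.2 and 52.8 CPM in AL 7R- ILC1s (log2 fold change 1.70 ± 0.12 (SE), adjusted p = 9.1e-11). Every fetal sample lay above every other sample of the series for this gene, the next highest being BM NK cells (107, 109 and 73.5 CPM). All 16 tested genes of a proliferation list were also higher in FL G1-ILCs, whose summed level was 7171 to 7941 CPM against 665 to 823 CPM in AL 7R- ILC1s and 1399 to 3159 CPM in BM NK cells. The part of cell division in the Dnajc9 difference was not tested.

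Of the 10 mitochondrial genes, 6 were higher in FL G1-ILCs and none was lower. Hspd1 (HSP60) was at 499.8, 476 and 429.7 CPM in fetal cells and 189, 224, 174 and 241 CPM in AL 7R- ILC1s (log2 fold change 1.18 ± 0.11 (SE), adjusted p = 8.91e-09). Its partner Hspe1 (HSP10), whose start lies in the region shown above, went from 45.7, 47, 45.1 and 48.7 CPM in adult cells to 136, 123 and 119 CPM in fetal cells (log2 fold change 1.43 ± 0.13 (SE), adjusted p = 2.45e-09). Hspa9, the mitochondrial HSP70, reached 292, 262 and 293 CPM in FL G1-ILCs against 130.5, 128, 90.9 and 153 CPM (log2 fold change 1.17 ± 0.12 (SE), adjusted p = 2.64e-08). The fetal and adult samples did not overlap for any of these. Among other genes for mitochondrial protein quality control, 7 of 12 were higher and 1 was lower, with Trap1, the mitochondrial HSP90, at 0.98 ± 0.12 and the nucleotide exchange factor Grpel1 at 0.82 ± 0.13 (log2 fold change ± SE).

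Both cytosolic HSP90 genes were higher in FL G1-ILCs. Hsp90aa1, the inducible form, was at 371, 396 and 414 CPM against 127, 183, 134 and 182 CPM (log2 fold change 1.33 ± 0.14 (SE), adjusted p = 3.46e-08). Hsp90ab1, the constitutive form, was at 1354, 1358 and 1309 CPM against 829, 940.1, 751 and 1055 CPM (log2 fold change 0.58 ± 0.10 (SE), adjusted p = 4.18e-05). Neither gene overlapped between the groups. Of other folding partners, 14 of 23 tested cochaperones of HSP70 and HSP90 were higher and 1 was lower, and 13 of 14 genes of the TRiC chaperonin and prefoldin, which fold actin and tubulin, were higher. Hspa4, an HSP110 of the cytosol, and Hspbp1, a nucleotide exchange factor of HSP70, had log2 fold changes of 0.83 ± 0.10 and 0.90 ± 0.13.

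Hspa1a and Hspa1b were low in liver and marrow but were also higher in FL G1-ILCs. Hspa1b was at 15.2, 12.9 and 21.1 CPM in fetal cells and 1.74, 3.88, 4.77 and 4.02 CPM in AL 7R- ILC1s (log2 fold change 2.15 ± 0.45 (SE), adjusted p = 0.000327). Hspa1a was at 9.73, 12.2 and 14.3 CPM in fetal cells, while AL 7R- ILC1s held 2 counts in all, both in replicate 4, which gives a ratio of 125 with a 95% counting interval of 34.1 to 1039. In the fit of liver and marrow groups, Hspa1a passed the filter on low counts only through FL G1-ILCs. Its place among the genes higher in fetal cells therefore adds no support. With the counts of both copies added, the log2 fold change was 2.90 ± 0.46 (SE), with an adjusted p of 1.35e-05 in edgeR's test. Hspa8 and Hspa5, the abundant HSP70s of cytosol and ER, were higher by only 0.30 ± 0.09 and 0.35 ± 0.08 on the log2 scale. The call for Hspa8 was lost in 5 of 15 alternatives other than the fold threshold. These were the fits without FL G1-ILC replicate 1 or 2, a minimum count of 50, other samples in the fit and thinning.

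The genes lower in fetal cells included several J proteins, which also make up most of the tested genes. Of 10 tested cytosolic and nuclear DNAJA and DNAJB genes, none was higher and 6 were lower. Dnajb2, a J protein that carries ubiquitin-interacting motifs, fell from 44, 45.2, 23.9 and 38.4 CPM in AL 7R- ILC1s to 3.93, 6.95 and 2.17 CPM in FL G1-ILCs (log2 fold change -3.06 ± 0.31 (SE), adjusted p = 1.53e-08), and the fetal samples were the lowest of the series. Dnaja4 fell likewise, from 17.1, 19.4, 14.8 and 23.6 to 3.37, 2.6 and 3.48 CPM (log2 fold change -2.57 ± 0.28 (SE), adjusted p = 6.72e-08). Dnajb4 was at 13.1, 11 and 6.52 CPM in fetal cells against 23.9, 20.4, 18.52 and 32.2 CPM (log2 fold change -1.20 ± 0.28 (SE), adjusted p = 0.00117). Dnajc18 had a log2 fold change of -0.61 ± 0.24 (adjusted p = 0.0401), a call that was lost in 7 of 15 alternatives other than the fold threshold, among them the fits without AL 7R- ILC1 replicate 2 or 3 or FL G1-ILC replicate 2 or 4 (adjusted p up to 0.128).

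Within the ER the members split. Hsp90b1, the ER HSP90, was at 1369.9, 1405 and 1269 CPM in FL G1-ILCs against 909, 922, 823 and 919 CPM (log2 fold change 0.59 ± 0.07 (SE), adjusted p = 1.54e-07). The J protein Dnajb9 (ERdj4), which restrains the stress sensor IRE1, went the other way, at 29.8, 39.1 and 37.8 CPM against 68.1, 71.8, 46.1 and 71.1 CPM (log2 fold change -0.85 ± 0.16 (SE), adjusted p = 8.68e-05). Dnajc1 (ERdj1) and Dnajc3 (P58IPK) were also lower, with log2 fold changes of -0.94 ± 0.11 and -0.50 ± 0.09. Thus 2 of 13 ER genes were higher and 5 were lower. In the wider ER list, 9 of 19 genes were higher (P4hb, protein disulfide isomerase, 1.02 ± 0.08) and 3 were lower, namely Eif2ak3 (PERK), Ddit3 (CHOP) and Ern1 (IRE1), at -1.14 ± 0.16, -0.99 ± 0.15 and -0.50 ± 0.18.

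**Figure D2:**
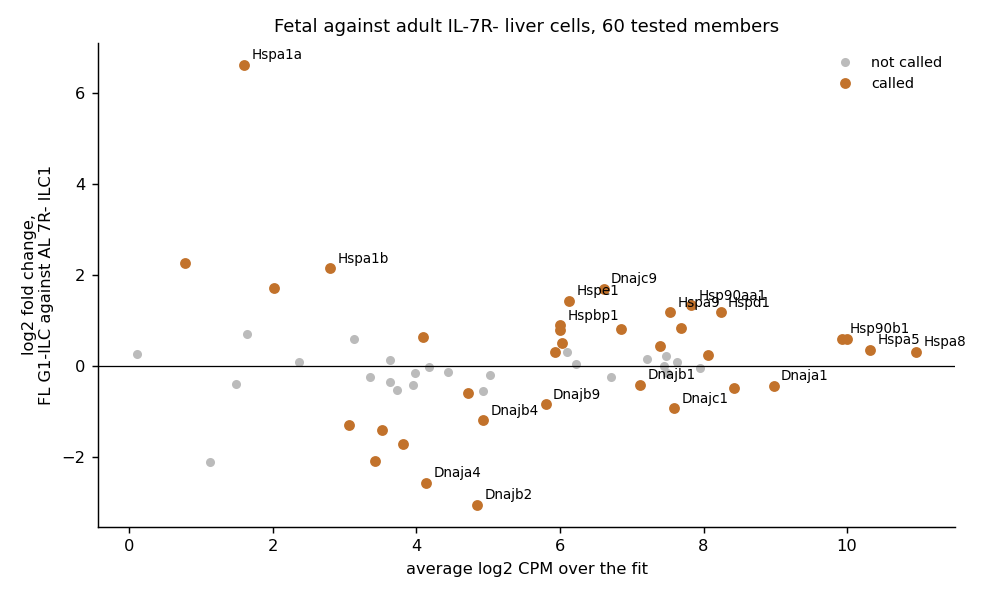
Log2 fold change of FL G1-ILCs against AL 7R- ILC1s (y axis) for the 60 tested genes by average log2 CPM over the 6 liver and marrow groups (x axis); orange points were called and grey points were not. Dnajc9, Hspe1, Hspd1, Hspa9 and Hsp90aa1 lie above 1, Dnajb2 and Dnaja4 lie below -2, and the abundant Hspa8 and Hspa5 sit close to 0.

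Within adult liver, the ILC1 populations told apart by IL-7R showed no called difference. None of the 60 genes passed in edgeR's quasi-likelihood test, whereas among all genes 3.58% rose and 2.81% fell in AL 7R+ ILC1s (6.38% in either direction). At an unadjusted p under 0.05 there were 9 genes (4 higher and 5 lower), and DESeq2 called 1 gene. The smallest p was that of Dnajb14, an ER J protein, at 12.4, 11 and 9.33 CPM in AL 7R+ ILC1s and 23.4, 19, 19.1 and 18.3 CPM in AL 7R- ILC1s (log2 fold change -0.87 ± 0.29 (SE), adjusted p = 0.0771). Hspd1 followed, at 312, 216 and 259 against 189, 224, 174 and 241 CPM (log2 fold change 0.35 ± 0.11 (SE), adjusted p = 0.0794). Among the abundant genes, the log2 difference was 0.18 ± 0.09 (SE) for Hspa8, -0.01 ± 0.08 for Hspa5 and -0.09 ± 0.07 for Hsp90b1, and the samples of the 2 groups overlapped for each of them.

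AL 7R- ILC1s were next compared with AL NK cells of the same organ. In this comparison 11 of 60 genes were lower in the ILC1s (18.3%; 11.8% of all genes) and 1 was higher (1.67%; 11.9%). Dnajb4 differed most among the better expressed genes, at 23.9, 20.4, 18.52 and 32.2 CPM in AL 7R- ILC1s and 67.8 and 67.6 CPM in AL NK cells (log2 fold change -1.52 ± 0.28 (SE), adjusted p = 0.000208). AL NK cells were the highest of the 6 groups for this gene. Dnajc10 (ERdj5), an ER disulfide reductase, was at 62.9, 54.8, 58.4 and 47.5 CPM against 99.8 and 92.3 CPM (log2 fold change -0.77 ± 0.16 (SE), adjusted p = 0.000637), and Hspd1 at 189, 224, 174 and 241 against 317 and 349.6 CPM (log2 fold change -0.68 ± 0.13 (SE), adjusted p = 0.000257). Dnajc3, an ER J protein that also inhibits PERK, was the 1 gene higher in the ILC1s, at 313, 426, 400.3 and 368 against 288 and 298 CPM (log2 fold change 0.37 ± 0.10 (SE), adjusted p = 0.00662).

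Many of these calls leaned on 1 library. That of Dnajc3 was lost without AL NK replicate 1 (0.28, adjusted p = 0.187). Hspa1b was at 5.77 and 22.5 CPM in AL NK replicates 1 and 2, and without replicate 2 the count of called genes went from 12 to 4. Hsp90aa1, Hspe1, Hsph1, Hspa8 and Hspa1b were among the calls lost, while Dnajb4, Dnajc10 and Hspd1 kept theirs. Hspa1a, with 13 counts in AL NK replicate 2 and none in replicate 1, changed sign without it. Of the cochaperones, Bag3, which couples HSP70 to autophagy, was lower in AL 7R- ILC1s (log2 fold change -5.10 ± 0.80 (SE), adjusted p = 2.99e-05), as were 6 of 23 in all. Fos also fell (log2 fold change -4.46 ± 0.93 (SE), adjusted p = 0.000837), 1 of 9 lower among 18 early response genes, and its part in the difference was not tested.

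Several cytosolic chaperones and Hspa5 were lower in marrow than in liver, in ILC1s and in NK cells. BM iILC1s had 11 of 60 genes lower than AL 7R+ ILC1s (18.3%; 4.79% of all genes) and 1 higher (1.67%; 4.92%), with 9.71% of all genes called in either direction. BM NK cells had 6 of 60 lower than AL NK cells (10%; 2% of all genes) and 0 higher (1.56% of all genes), with 3.57% of all genes called in either direction. These comparisons use separate samples. All 6 genes lower in BM NK cells were also lower in BM iILC1s (54.5% of the 11), namely Hspa8, Hspa1b, Hsph1, Dnaja1, Dnajb1 and Hspa5. The same overlap was not computed over all genes. Marrow was flushed while adult liver cells passed a Percoll step, and preparation and tissue cannot be told apart here.

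Dnaja1, the main DNAJA partner of Hspa8, was at 365, 411 and 405 CPM in BM iILC1s and 656, 550.0 and 579 CPM in AL 7R+ ILC1s (log2 fold change -0.59 ± 0.13 (SE), adjusted p = 0.00521). In NK cells it was at 309.6, 338 and 315 CPM in marrow and 534 and 733 CPM in liver (log2 fold change -0.98 ± 0.15 (SE), adjusted p = 0.00037). Neither pair overlapped. Hspa8 itself was at 1334, 1387 and 1531 CPM in BM iILC1s and 2122, 1780.1 and 2255 CPM in AL 7R+ ILC1s (log2 fold change -0.53 ± 0.10 (SE), adjusted p = 0.000834). The NK values for Hspa8 were 1566, 1787 and 1414 CPM in marrow against 2301 and 2420.0 CPM in liver (log2 fold change -0.57 ± 0.11 (SE), adjusted p = 0.00384).

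Dnajb1, the DNAJB partner of HSP70 that is induced by heat, was at 68.9, 113 and 119 CPM in BM iILC1s against 184, 134 and 132 CPM (log2 fold change -0.58 ± 0.16 (SE), adjusted p = 0.0213). It was at 92.4, 109 and 104 CPM in BM NK cells against 168 and 205 CPM (log2 fold change -0.87 ± 0.18 (SE), adjusted p = 0.00514). Hspa5 (BiP) was also lower in both, at 1066, 878 and 847 against 1264, 1221 and 1304 CPM in ILC1s (log2 fold change -0.44 ± 0.08 (SE), adjusted p = 0.000657) and 904, 832 and 897 against 1301 and 1221 CPM in NK cells (log2 fold change -0.52 ± 0.09 (SE), adjusted p = 0.00115). Hsph1 (HSP105) was at 109.8, 111 and 103 against 187, 142 and 164 CPM in ILC1s and 120.4, 135 and 153 against 198 and 239 CPM in NK cells, with log2 fold changes of -0.60 ± 0.15 and -0.68 ± 0.17. By contrast Hspa9 was not called in either, at 0.37 ± 0.13 (adjusted p = 0.0828) in ILC1s and 0.33 ± 0.15 (adjusted p = 0.253) in NK cells.

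These folds were below 1 on the log2 scale except for Hspa1b, and single libraries mattered. Without AL NK replicate 2, 3 genes were called between the NK groups, and Hspa8, Dnajb1 and Hsph1 were lost. Without AL 7R+ ILC1 replicate 1, 6 genes in place of 12 were called between BM iILC1s and AL 7R+ ILC1s, and Dnajb1, Hsph1, Hspa1b, Hspd1, Hsp90aa1 and Hsp90ab1 lost their calls. Dnajb1 also lost its call in this pair without BM iILC1 replicate 1, and Hsph1 in the NK pair without BM NK replicate 1 or 2. Of the 6 genes lower in both pairs, Dnaja1 and Hspa5 kept both calls in every fit that left out 1 sample. Hspa1b was at 1.57, 1.37 and 1.2 CPM in BM iILC1s and 3.71, 6.84 and 4.15 CPM in AL 7R+ ILC1s, and when the counts of Hspa1a were added to it the call was lost (log2 fold change -1.33 ± 0.55, adjusted p = 0.151), whereas between the NK groups the added counts gave -4.04 ± 0.63 (adjusted p = 0.00037). In the ILC1 pair, T cell markers were at 281 to 396 CPM in BM iILC1s against 106 to 111 CPM (all 7 listed had a count in both groups), and myeloid markers at 187 to 1516 CPM against 3.53 to 16.9 CPM, where Elane, S100a9 and Cd14 were at 0. In the NK pair, 7 of 18 early response genes were lower in BM NK cells and none was higher, with sums of 1745 to 1792 CPM against 2466 to 2753 CPM. Myeloid markers were at 9.5 to 198 CPM in BM NK cells against 4.79 to 8.3 CPM, and none of 8 tested was called in edgeR's test. The part of these lists in the differences was not tested.

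Dnajc10 stood apart from this pattern. It was higher in BM iILC1s (102, 83.1 and 75.9 CPM) than in AL 7R+ ILC1s (54.5, 58.9 and 49.1 CPM; log2 fold change 0.69 ± 0.15 (SE), adjusted p = 0.00353), while BM NK cells (84.7, 81.1 and 77.9 CPM) were not called against AL NK cells (99.8 and 92.3 CPM; log2 fold change -0.24 ± 0.17 (SE), adjusted p = 0.52). The difference between the 2 marrow effects was itself tested, after these values were seen. It was 0.93 ± 0.23 on the log2 scale (SE; adjusted p = 0.0163), the only one called among 60 genes, where 3.97% of all genes were called.

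**Figure D3:**
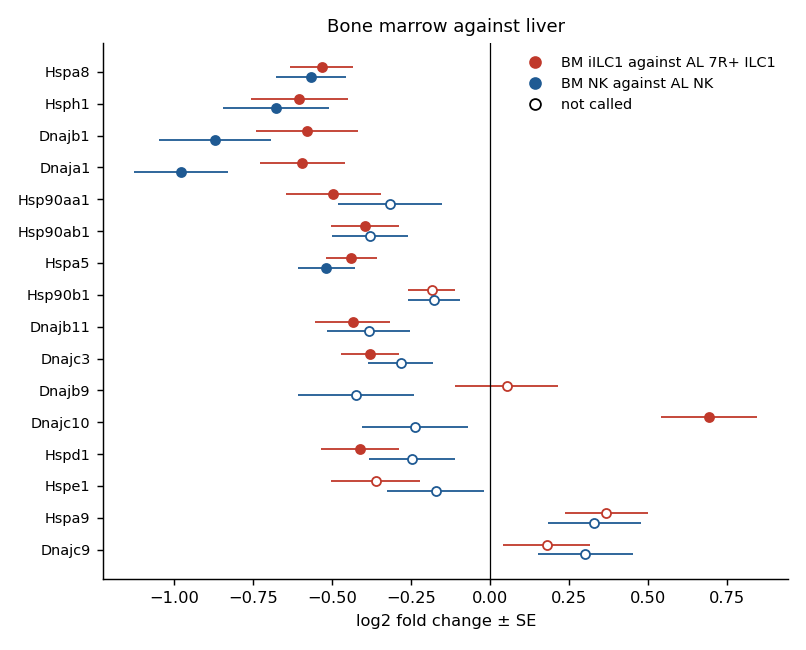
Log2 fold change ± SE (x axis) of BM iILC1s against AL 7R+ ILC1s (red) and BM NK cells against AL NK cells (blue) for 16 genes (y axis); open points were not called. Hspa8, Hsph1, Dnajb1, Dnaja1 and Hspa5 lie left of 0 and filled in both, Hsp90b1 is close to 0 and open in both, and Dnajc10 lies right of 0 in ILC1s alone.

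Between the marrow populations, BM iILC1s had 2 of 60 genes higher than BM NK cells (3.33%; 7.35% of all genes) and 4 lower (6.67%; 6.24%). Both shares were near or below those of all genes. Dnajb9 was higher, at 56.9, 57.7 and 67.3 against 39.7, 35.6 and 39.3 CPM (log2 fold change 0.68 ± 0.17 (SE), adjusted p = 0.00609), and so was Dnajc3 (0.40 ± 0.09). Dnajc9 was lower, at 56.9, 63.6 and 63.9 against 107, 109 and 73.5 CPM (log2 fold change -0.64 ± 0.14 (SE), adjusted p = 0.00157), with Hspd1 at -0.50 ± 0.12. Hspe1 was at -0.48 ± 0.14 (adjusted p = 0.0214) and lost its call without BM iILC1 replicate 1 or BM NK replicate 2 (adjusted p up to 0.129). Hspa13, at -0.59 ± 0.20, was at the threshold (adjusted p = 0.04999) and lost its call in 9 of 14 such alternatives, including 5 of the 6 fits that leave out 1 sample, all but that without BM iILC1 replicate 2 (adjusted p up to 0.189). All 16 proliferation genes were lower in BM iILC1s in the same comparison, and their part was not tested.

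The cells of digested tissues were then set against the other 5 adult groups. Inducible HSP70, its DNAJB and HSP110 partners and HSP90 were far higher in LPL ILC1s and SG G1-ILCs, while the ER genes differed between these groups and the Dnajc genes of other places went both ways. 30 of 61 genes were higher (49.2%; 27.5% of all genes) and 9 were lower (14.8%; 27.3%). The 61 include Hspb1, which passed the filter only through its counts in LPL ILC1s and SG G1-ILCs. Its place among the higher genes, here and in the pairs below, therefore adds no support. The median log2 fold change was 0.31 over the 61 genes and -0.02 over all genes. Every tested cytosolic HSP70 gene (4 of 4), both HSP90 genes and 7 of 10 DNAJA and DNAJB genes were higher, and none of these was lower.

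Hspa1b was at 804, 1665, 459.7 and 338 CPM in LPL ILC1s and 2319 and 1963 CPM in SG G1-ILCs, and at most 22.5 CPM in any other sample (log2 fold change 8.74 ± 0.36 (SE), adjusted p = 6.39e-13). Hspa1a was at 390.2, 704, 216 and 134 CPM and 1331 and 1114 CPM, with a maximum of 14.3 CPM elsewhere, in FL G1-ILCs. Their sum was 3363 ± 405 CPM (SD, n = 2) in SG G1-ILCs and 1177 ± 850 (n = 4) in LPL ILC1s, against 0.963 ± 0.924 (n = 3) in BM NK cells, the lowest group. With their counts added, the log2 fold change of SG G1-ILCs against AL 7R- ILC1s was 9.76 ± 0.64 (SE). That of LPL ILC1s against AL 7R+ ILC1s was 7.75 ± 0.65. The split between the copies is uncertain, so the ratio for Hspa1a alone given next is too. In counts, SG G1-ILCs had 9125 for Hspa1a where AL 7R- ILC1s had 2, a ratio of 12677 with a 95% counting interval of 3508 to 104691, and LPL ILC1s had 5121 where AL 7R+ ILC1s had 12. Hspb1 (HSP27), a small heat shock protein that holds unfolded clients, was close to absent outside these tissues, with 6 counts in the 18 other samples, and had 43 counts in LPL ILC1s (none in 1 of the 4 samples) and 120 in SG G1-ILCs. The ratio of SG G1-ILCs to AL 7R- ILC1s, which held 3 of the 6, was 111 (95% counting interval 37.1 to 546).

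Dnajb1 was at 1755 and 1393 CPM in SG G1-ILCs, 498, 770.3, 352 and 304 CPM in LPL ILC1s and 68.9 to 205 CPM in the other adult groups (log2 fold change 2.71 ± 0.15 (SE), adjusted p = 8.49e-12). Hsph1 was at 793, 1187, 526 and 420.2 CPM in LPL ILC1s and 613 and 609 CPM in SG G1-ILCs, against 103 to 239 CPM (log2 fold change 2.15 ± 0.16 (SE), adjusted p = 7.14e-10). Dnaja1 reached 2487, 3302, 2287 and 2552 CPM and 2199 and 2048 CPM, against 309.6 to 733 CPM (log2 fold change 2.31 ± 0.08 (SE), adjusted p = 3.99e-18). The digested samples did not overlap with the other adult samples for any of these genes. Hspa2, an HSP70 best known from testis, also rose, from 8.3 to 15.8 CPM to 56.3, 80.9, 86.9 and 92.2 CPM in LPL ILC1s and 78.1 and 67.2 CPM in SG G1-ILCs (log2 fold change 2.72 ± 0.15 (SE), adjusted p = 4.81e-15).

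**Figure D4:**
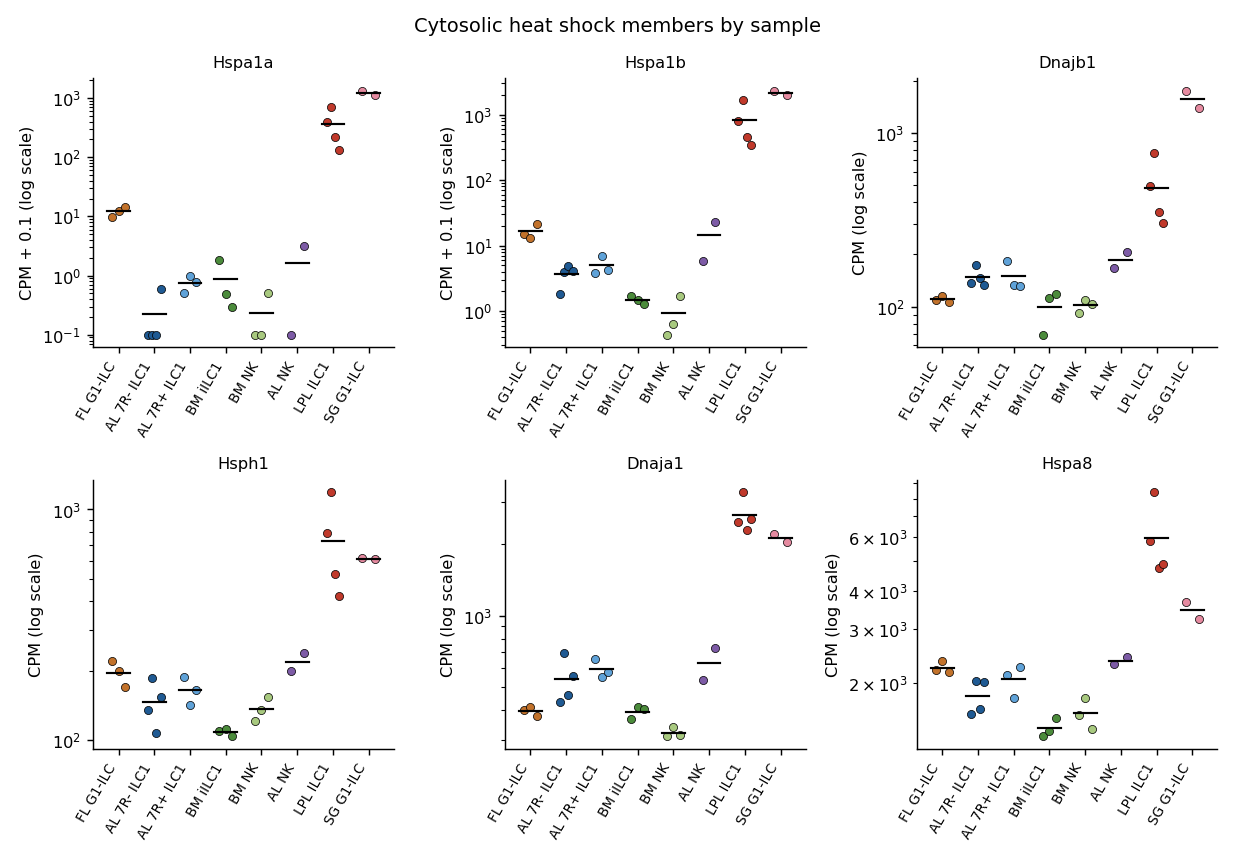
CPM on a log scale (y axis; 0.1 was added for Hspa1a and Hspa1b, which have zeros) of 6 genes in each of the 24 samples (points) by group (x axis), with group means as lines. The LPL ILC1 and SG G1-ILC points lie above all others in every panel. SG G1-ILCs are highest for Hspa1a, Hspa1b and Dnajb1, LPL ILC1s are highest for Hspa8, and FL G1-ILCs lead the other groups for Hspa1a.

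Hspa8, Hsp90ab1 and Hspd1 rose less than these. Hspa8 was at 5789, 8381, 4735 and 4886 CPM in LPL ILC1s and 3681 and 3228 CPM in SG G1-ILCs, with 1334 to 2420.0 CPM in the other adult groups (log2 fold change 1.32 ± 0.10 (SE), adjusted p = 2.99e-10). Hsp90aa1 was at 663, 923, 616 and 551 CPM in LPL ILC1s and 749.6 and 712 CPM in SG G1-ILCs, and rose by 1.97 ± 0.10 on the log2 scale, while Hsp90ab1 rose by 1.30 ± 0.08. Hspe1 and Hspd1 also rose, by 2.05 ± 0.10 and 1.06 ± 0.08, with Hspe1 at 210.0, 304, 148 and 157 CPM in LPL ILC1s and 255 and 238 CPM in SG G1-ILCs. Of the remaining mitochondrial genes Dnaja3 (TID1) fell, from 46 to 75.3 CPM to 19.2, 30.7, 33 and 26 and 35.8 and 37.6 CPM (log2 fold change -0.89 ± 0.12 (SE), adjusted p = 2.51e-07). Dnajc5, a J protein of secretory vesicles, and Dnajc14 were lower as well (-0.55 ± 0.06 and -0.60 ± 0.09), and so were Dnajc10 (-0.54 ± 0.12), Dnajc13, an endosomal J protein (-0.52 ± 0.16), and Dnajc11 (-0.41 ± 0.12), which lost its call without SG G1-ILC replicate 1 (adjusted p = 0.0628).

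Other lists moved with these genes. Of 20 tested early response genes, 18 were higher in the digested groups and none was lower, led by Atf3 (9.34 ± 0.22), Fosb (9.24 ± 0.15) and Fos (8.63 ± 0.28). Their summed level was 32483 to 36668 CPM in LPL ILC1s and 19427 to 20930 CPM in SG G1-ILCs, against 1745 to 2753 CPM in the other adult groups. Of 23 cochaperones 9 were higher and 7 were lower, with Bag3 at 2.23 ± 0.42 and Fkbp5, an HSP90 cochaperone of steroid receptors, at -0.92 ± 0.12. Of 3 tested heat shock factors 2 were lower, Hsf4 (-1.14 ± 0.29) and Hsf1 (-0.30 ± 0.08). Myeloid markers summed to 765 to 901 CPM in SG G1-ILCs, where S100a8 and S100a9 were at 0, and to 7.37 to 15.2 CPM in LPL ILC1s. T cell markers summed to 423 to 451 CPM and ILC2 and ILC3 markers to 482 to 710 CPM in LPL ILC1s, against 106 to 111 and 243 to 256 CPM in AL 7R+ ILC1s. The part of these cells and of the early response in the chaperone levels was not tested.

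Each digested group was also compared with 1 of the liver ILC1 groups, LPL ILC1s with the IL-7R+ cells and SG G1-ILCs, whose gate did not use IL-7R, with the IL-7R- cells. LPL ILC1s had 31 of 61 genes higher than AL 7R+ ILC1s (50.8%; 24.6% of all genes) and 9 lower (14.8%; 26.1%), with 50.7% of all genes called in either direction. SG G1-ILCs had 21 higher than AL 7R- ILC1s (34.4%; 17.8%) and 4 lower (6.56%; 14.6%). All 21 genes higher in SG G1-ILCs, Hspb1 among them, were also higher in LPL ILC1s (67.7% of the 31). This overlap was not computed over all genes, so whether it is particular to these genes is not known. Dnajc15, a J protein of the mitochondrial inner membrane, was called in opposite directions, at 149.9, 163, 166 and 149 CPM in LPL ILC1s against 127, 121 and 117 CPM and at 111 and 86.7 CPM in SG G1-ILCs against 128, 118, 147 and 145 CPM. The second call rested on SG G1-ILC replicate 2, without which the log2 fold change went from -0.45 to -0.28 (adjusted p = 0.209).

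Within the ER, Hspa5 and Hspa13 set LPL ILC1s apart. Hspa5 was at 6953, 7056, 7464 and 7754 CPM in LPL ILC1s and 1264, 1221 and 1304 CPM in AL 7R+ ILC1s (log2 fold change 2.53 ± 0.08 (SE), adjusted p = 5.1e-20). In SG G1-ILCs it was at 1876 and 2149 CPM, against 1254, 1369, 1147 and 1332 CPM in AL 7R- ILC1s (log2 fold change 0.66 ± 0.08 (SE), adjusted p = 2.9e-07). The direct difference between SG G1-ILCs and LPL ILC1s was -1.86 ± 0.09 on the log2 scale (adjusted p = 2.98e-15). Hspa5 also had a low spread among the LPL samples, unlike Hspa1b, which ranged from 338 to 1665 CPM in the same samples.

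Hspa13 (STCH), a small HSP70 of microsomes, was at 180.2, 169, 147 and 150.1 CPM in LPL ILC1s, and at 40.3 and 32.8 CPM in SG G1-ILCs (log2 fold change -2.14 ± 0.20 (SE), adjusted p = 1.1e-09). All other groups lay between 19.4 and 41.5 CPM. Dnajc12, a J protein that assists aromatic amino acid hydroxylases, was at 65, 62.8, 66.6 and 94.2 CPM in LPL ILC1s and 21.2 and 10.9 CPM in SG G1-ILCs (log2 fold change -2.18 ± 0.38 (SE), adjusted p = 4.63e-05). Dnajb9 was higher in both digested groups, at 159.5, 181, 209.9 and 192 CPM and 138 and 118 CPM (log2 fold change 1.52 ± 0.09 (SE), adjusted p = 1.92e-14).

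Hsp90b1 did not follow Hspa5, although both promoter windows hold the ER stress element letters. It was at 1097, 1004, 1063 and 973 CPM in LPL ILC1s against 833, 855 and 832 CPM (log2 fold change 0.30 ± 0.07 (SE), adjusted p = 0.000885), a call that was lost without a filter on low counts (0.13, adjusted p = 0.429), and at 739 and 818 CPM in SG G1-ILCs against 909, 922, 823 and 919 CPM (log2 fold change -0.20 ± 0.08 (SE), adjusted p = 0.0614). Dnajb11 (ERdj3) had a log2 fold change of 0.42 ± 0.11 in LPL ILC1s, and Dnajc3 one of 0.08 ± 0.08, which was not called. In the wider ER list, 12 of 19 genes were higher in LPL ILC1s, led by Ern1 (2.84 ± 0.16), Ddit3 (2.43 ± 0.14) and Herpud1 (1.69 ± 0.10), a factor of ER-associated degradation. Hyou1, the ER HSP110, and Pdia4 were lower (-1.61 ± 0.27 and -0.53 ± 0.09). Plasma cell markers, which mark cells with a large ER, summed to 39.6 to 58.6 CPM in LPL ILC1s and 25.2 to 35.4 CPM in AL 7R+ ILC1s. They summed to 42.7 to 54.7 CPM in AL 7R- ILC1s, 89.2 to 101 CPM in BM NK cells and 80.6 to 116 CPM in AL NK cells. The sums were 27.5 to 28.4 CPM in FL G1-ILCs, 32.1 to 50.1 CPM in BM iILC1s and 10.2 to 10.9 CPM in SG G1-ILCs. Mzb1 had no count in AL 7R- ILC1s, AL NK cells or SG G1-ILCs. The part of plasma cells in the ER levels was not tested.

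SG G1-ILCs and LPL ILC1s were then compared directly. Their preparations differed, as given above, and preparation, tissue and sort gate cannot be told apart here. 7 of 61 genes were higher in SG G1-ILCs (11.5%; 18.7% of all genes) and 15 were lower (24.6%; 16.8%), but without a filter on low counts 8 were higher and 7 were lower. Dnajb1 was higher by 1.71 ± 0.26 (adjusted p = 3.5e-05), and the samples of the 2 tissues did not overlap. Hspa1a and Hspa1b were higher by 1.76 ± 0.43 and 1.39 ± 0.44. These 2 calls were lost with DESeq2 and when only the 2 groups were fitted, while their added counts gave 1.52 ± 0.45 (adjusted p = 0.015). Dnajc14 and Hspd1 were also higher, by 0.45 ± 0.15 and 0.45 ± 0.14, but Dnajc14 lost its call without SG G1-ILC replicate 1 or 2 or LPL ILC1 replicate 4 (adjusted p up to 0.137). Hspa8 was lower in SG G1-ILCs (log2 fold change -0.78 ± 0.18 (SE), adjusted p = 0.00174), as were Hsp90ab1 (-0.49 ± 0.14), Dnajc15 (-0.67 ± 0.12) and Dnaja2 (-0.65 ± 0.12). Hsph1, at -0.26 ± 0.29 with an adjusted p of 0.52, was not called.

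Within LPL ILC1s, replicate 2 had the highest level of 14 of the 31 genes that were higher than in AL 7R+ ILC1s. Without it, the mean of Hspa1b in LPL ILC1s was 534 CPM instead of 816 (1.53 times), and its log2 fold change against AL 7R+ ILC1s was 6.80. The count of called genes was then 39. For SG G1-ILCs against LPL ILC1s, 12 genes in place of 22 were called without SG G1-ILC replicate 2, and those lost included Hspa8, Hspd1, Hspa1b, Dnajc14, Hsp90ab1 and Dnajb9. Hsp90ab1, Hspa1b and Dnajc14 were also lost without replicate 1.

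**Figure D5:**
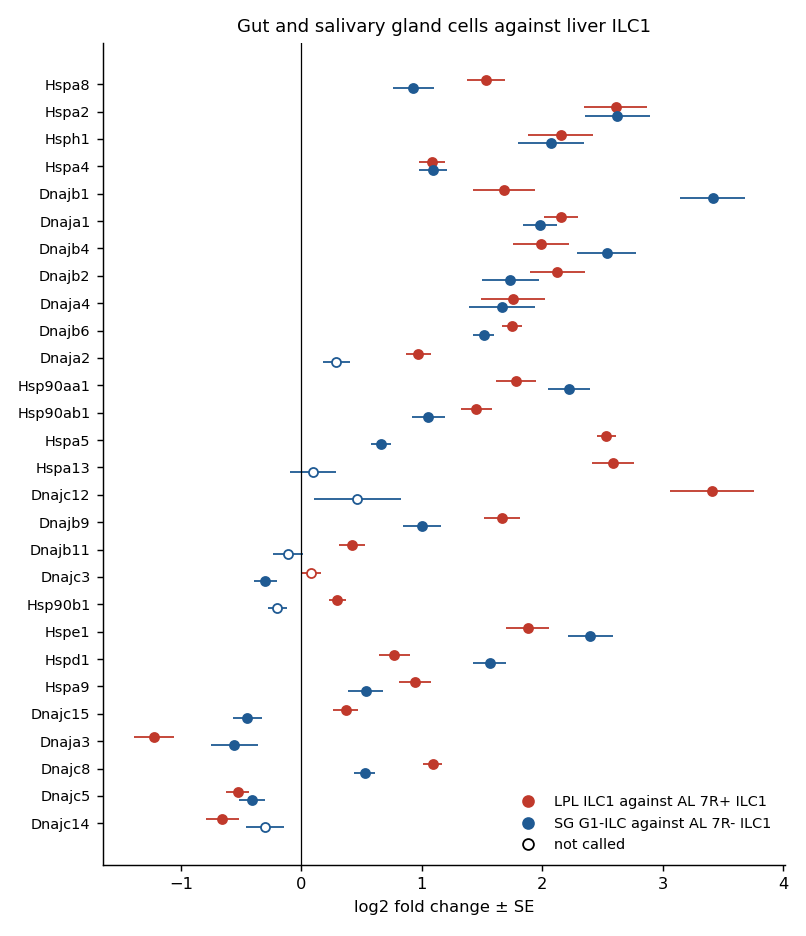
Log2 fold change ± SE (x axis) of LPL ILC1s against AL 7R+ ILC1s (red) and SG G1-ILCs against AL 7R- ILC1s (blue) for 28 genes ordered by role (y axis); open points were not called. Hspa1a, Hspa1b and Hspb1 are left out because their folds are far larger. The cytosolic genes from Hspa8 to Hsp90ab1 lie right of 0 in both, whereas Hspa5, Hspa13 and Dnajc12 lie beyond 2.5 in red and below 1 in blue.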

How the data were processed

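RNA from sorted cells was made into SMART-seq HT libraries and sequenced as 150 base paired-end reads. Per the submitters' notes, the authors used fastp 0.23.0, HISAT2 2.1.0 and featureCounts of Subread 1.6.5 with the mm10 build, and deposited 1 table of raw counts per gene for 25 libraries. How reads in several genes and strand were treated is not given in the sources used here. Identifiers were matched to GENCODE vM21 (45229 of 46078; the other 849 hold 0.104% of counts). Counts of FL G1-ILC replicates 2 and 3 were added. Tests were edgeR 4.0.16 quasi-likelihood fits in R 4.3.3 (TMM, filterByExpr with a minimum count of 10, robust, Benjamini-Hochberg over all genes tested), 1 fit for the 6 liver and marrow groups and 1 for all 8 groups. The study itself used DESeq2. DESeq2 1.42.0 was an alternative here, beside RLE scaling, other filters, a replicate block, all 25 libraries apart, other samples in the fit, thinning and leaving out each sample. Scripts were tested on simulated data. Up to 6 called members per direction with the largest absolute log2 fold change among those with an average of at least 4 log2 CPM were named, beside a fixed set of 15 members and up to 3 called genes per direction of each list; other genes named in the text were chosen after their values were seen. The members and the gene lists were chosen with earlier results of these data known. Library totals limit precision for genes with few counts, and counting intervals (95%, exact) cover counting error only. 3 pseudogene rows that match the symbols were left out (856 counts), and 1 annotated gene of the rule was not analysed here.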

Additional observations from a re-analysis of the deposited data

Results flagged for a closer look

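In groups of 4 samples, Dixon's test was run on 88 sets, made of the named genes and of the summed roles by group. In 5 of them, all of single genes, a sample was flagged against the other 3. Chance gives about 1 in 20 for independent sets, and these sets are not independent. Dnajb9 was at 46.1 CPM in AL 7R- ILC1 replicate 3, where the others were at 68.1 to 71.8 CPM. Hsp90b1 was at 823 CPM in the same sample, with the others at 909 to 922 CPM. Dnajc1 was at 190.9 CPM in AL 7R- ILC1 replicate 1 and at 231 to 233 CPM in the others. Hspa1a was at 0.503 CPM (2 counts) in AL 7R- ILC1 replicate 4 and at 0 in the others. With the others at 0, any count would be flagged, so this flag carries no weight. Dnajc12 was at 94.2 CPM in LPL ILC1 replicate 4 and at 62.8 to 66.6 CPM in the others. The marrow effect on Dnajc10 differed between ILC1s and NK cells, by 0.93 on the log2 scale in a test of the difference itself.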

How the results depend on the processing

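Requiring a log2 fold change over 1 left 16 genes for FL G1-ILCs against AL 7R- ILC1s, 3 for AL 7R- ILC1s against NK cells of the liver, 1 for BM iILC1s against AL 7R+ ILC1s, 0 for BM iILC1s against BM NK cells, 1 for BM NK against AL NK cells, 22 for the digested groups, 26 for LPL ILC1s, 16 for SG G1-ILCs against AL 7R- ILC1s and 9 against LPL ILC1s. With all 8 groups in the fit, 7 genes were called for AL 7R- ILC1s against liver NK cells, 6 for BM iILC1s against AL 7R+ ILC1s and 3 for BM NK against AL NK cells. DESeq2 called 10 for the last of these. For AL 7R+ against AL 7R- ILC1s, 1 gene was called by DESeq2, 2 without a filter, 1 with the replicate block and 2 after thinning. Why these counts moved was not tested.

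Leaving out 1 sample at a time gave 32 to 39 genes for the test across 6 groups, 27 to 34 for FL G1-ILCs, 0 to 2 for AL 7R+ against AL 7R- ILC1s (2 without AL 7R- ILC1 replicate 4), 4 to 13 for AL 7R- ILC1s against liver NK cells, 6 to 11 for BM iILC1s against AL 7R+ ILC1s, 4 to 7 against BM NK cells, 3 to 6 for BM NK against AL NK cells, 35 to 40 for the digested groups, 35 to 40 for LPL ILC1s, 22 to 27 for SG G1-ILCs against AL 7R- ILC1s and 12 to 25 against LPL ILC1s. Hspa1a in AL 7R- ILC1s against NK cells of the liver ran from -6.03 without AL 7R- ILC1 replicate 4 to 2.42 without AL NK replicate 2 (adjusted p = 0.654). SG G1-ILCs against LPL ILC1s split into 8 higher and 7 lower without a filter, and 5 and 19 with DESeq2. Without a filter the median of all genes was 0.48 for LPL ILC1s, 0.25 for the digested groups and -0.44 for SG G1-ILCs against LPL ILC1s. Of 131 calls for named genes, 89 held under every alternative other than the fold threshold. With the counts of Hspa1a and Hspa1b added, an alternative chosen after seeing the data, Hspa1b lost its call in BM iILC1s against AL 7R+ ILC1s.

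Same-numbered samples did not deviate together (mean correlation -0.00619, range -0.0887 to 0.0393, and 3 of 24 samples correlated best with their own number), so the replicate block is given only here.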

Other observations

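The TRiC chaperonin and prefoldin, which fold actin and tubulin, were also higher in the digested groups, with 7 of 14 genes called higher and none lower. The list summed to 3153 to 3475 CPM in LPL ILC1s and 2597 to 2617 CPM in SG G1-ILCs, against 2105 to 2805 CPM in the other adult groups, and so SG G1-ILCs overlapped with them in the sum. FL G1-ILCs were highest, at 4036 to 4293 CPM. Mitochondrial quality control genes had 1 of 12 higher (Grpel1, 0.58 ± 0.08 on the log2 scale) and 2 lower in the digested groups, where Hspd1 and Hspe1 were both higher.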
